A study of Homo sapiens with 4 samples.

Results

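EGR, NR4A and IER genes and CD69 are a group of 10 immediate early or early T-cell activation genes outside the AP-1 family, taken by name from the 22361 rows of the ARIEL knockdown table. All 10 have a row, and 9 were among the 14601 rows with enough expression to be tested. The table compares Jurkat cells, a human T-cell acute lymphoblastic leukaemia line, carrying an shRNA against the long non-coding RNA ARIEL (shARIEL, 2 libraries) with Jurkat cells carrying an shRNA against GFP (shGFP, 2 libraries). Both groups were infected with lentivirus, selected in 0.7 µg/ml puromycin for at least 36 h and collected at 72 h. No stimulation of the T-cell receptor is named in the labels, and how well the cells of either group grew is not stated. Nothing says that the libraries of a group came from separate cultures. The p-values of limma then measure only the spread between these samples, pooled over genes of similar level.

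Immediate early genes are switched on within minutes of a signal by transcription factors already present in the cell. In T cells the T-cell receptor drives them through the Ras-ERK kinases, which act on the serum response factor SRF and its ETS-family partners, and through calcium, calcineurin, NFAT and MEF2. Their short-lived messages encode transcription factors such as EGR and NR4A proteins, which set the later response, and CD69 is among the first surface proteins to appear.

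The knockdown was visible in these libraries and their cells carried T-cell RNA. ARIEL has no row under its own name; from background knowledge of the study it is the locus XLOC_005968 on chromosome 10, whose rlog expression was 10.58 and 10.55 in shARIEL libraries and 12.02 and 11.91 in shGFP libraries. All 10 T-cell markers searched were tested, 2 higher and 4 lower in shARIEL cells, where 22.1% and 22.4% of all tested genes were. Of 5 erythroid markers none was tested and 3 were listed at 0, and the 7 myeloid markers had a mean rlog of at most 4.37. Of 7 B-cell markers 2 were tested, CD79A called higher (difference 0.29 ± 0.04, SE) and BLNK lower (-0.06 ± 0.03). The summed linear level of the B-cell list was 2434 to 2468 in shARIEL libraries and 1963 to 2073 in shGFP libraries, with MS4A1 listed at 0. Of 6 NK-cell and 7 fibroblast or epithelial markers 2 each were tested, with none of the first and COL1A1 (lower) and KRT8 (higher) of the second called. The authors' deposited table calls neither BLNK nor KRT8 (adjusted p = 0.105 and 0.122), and limma with the trend on transcript GC content and length removed does not either (0.138 and 0.992). The part of these markers in the results below was not tested. By their labels all libraries are of the same cell line, Jurkat. Bulk libraries do not show whether a change lies in all of its cells or in some.

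Of the 9 tested genes, 6 rose in shARIEL cells (EGR1, EGR2, EGR3, NR4A1, IER2 and IER5), CD69 fell, and IER3 and NR4A3 were not called (limma, adjusted p under 0.05). Over all tested genes 44.4% were called, 22.1% higher and 22.4% lower. The median rlog difference of the 9 genes was 0.15, against 0.00 over all tested genes. The authors' deposited table calls the same number, 6 higher and 1 lower, against 20.1% and 19.3% of its 14551 genes with an adjusted p. On the rlog scale, which understates changes, the called rises were at most 0.33. In the authors' deposited table they reached 2.01-fold (EGR3). The fall of CD69 was the largest change of the group on both scales.

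**Figure D1:**
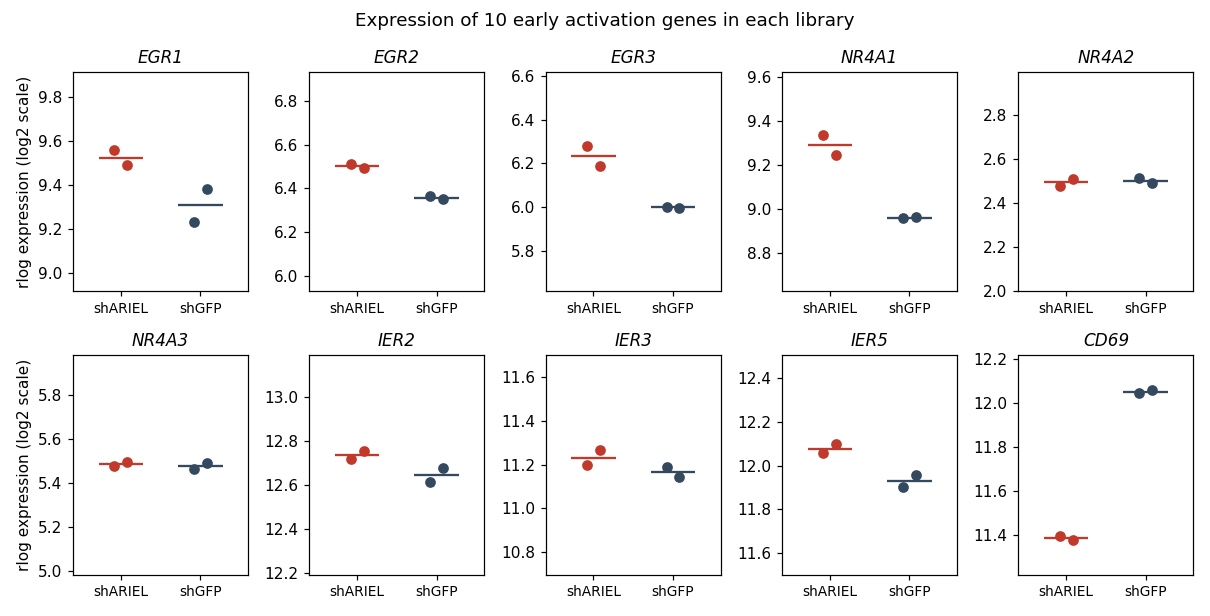
Rlog expression (log2 scale) of each of the 10 genes in the 2 shARIEL libraries (left in each panel) and the 2 shGFP libraries (right); points are libraries, lines are group means, and every panel spans the same range on the log2 scale. CD69 shows the widest gap, while points of NR4A2 and NR4A3 overlap between groups.

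The EGR proteins are zinc finger transcription factors that bind GC-rich DNA. EGR1, on chromosome 5, had rlog values of 9.56 and 9.49 in shARIEL libraries and 9.23 and 9.38 in shGFP libraries. Both shARIEL libraries were above both shGFP libraries, as in 35.6% of all tested genes, though the 2 shGFP libraries were further apart than for its relatives (SD 0.11, n = 2). The difference was 0.22 ± 0.05 (SE; limma, adjusted p = 3.91e-05), and 0.46 ± 0.14 as log2 fold change in the authors' deposited table. EGR2, on chromosome 10, had 6.51 and 6.50 in shARIEL libraries and 6.37 and 6.35 in shGFP libraries. The groups did not overlap and each was tight. Its rlog difference was 0.15 ± 0.04 (SE; limma, adjusted p = 0.000609), while the authors' deposited table gives a log2 fold change of 0.58 ± 0.21. EGR3 had 6.28 and 6.19 in shARIEL libraries and 6.002 and 5.998 in shGFP libraries, again without overlap. Its rlog difference was 0.23 ± 0.04 (SE; limma, adjusted p = 1.28e-09), and the authors' deposited table puts it 2.01-fold higher, the largest rise of the group there.

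EGR1 and EGR2 carry CArG boxes, the sequence that SRF binds, in the window from 250 bases before to 50 after a transcript start. They are shown because SRF links the ERK pathway to immediate early genes. Such a box was found in 1.29% of the 35116 human promoter windows of RefSeq (build GRCh38.p14), and 2 or more in 0.0313%. EGR1 has 2, which begin 105 and 83 bases before the start, at chr5:138465364-138465393 and chr5:138465386-138465415 on the plus strand with their flanks. EGR2 has 1 in 1 of its 3 windows, 71 bases before that start, at chr10:62816418-62816447 on the minus strand. In the sequences, 5′ to 3′, capitals mark the box.
EGR1 distal: gccggtcctgCCATATTAGGgcttcctgct
EGR1 proximal: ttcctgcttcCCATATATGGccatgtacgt
EGR2: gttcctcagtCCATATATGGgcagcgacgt
The windows of NR4A1, NR4A3, IER2 and IER5 hold none. That of NR4A3 holds 4 copies of TGACG, the core of the site that CREB proteins bind (either strand, at least 1 in 24.6% of windows). The EGR1 window and the EGR2 window with the CArG box hold 2 each, and that of IER2 holds 1. The stretch of NR4A3 with 2 of its copies, chr9:99821772-99821801 on the plus strand, is shown with the cores in capitals because it is the window with most copies among these genes.
NR4A3: agggTGACGtagcgtcccatggCGTCAcat
Windows of 6 of the 10 genes were matched. A match is a description of the sequence and says nothing of binding in these cells.

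EGR activity is held back by the corepressors NAB1 and NAB2, and NAB2 is itself known as an EGR target. NAB2 had rlog values of 10.33 and 10.35 in shARIEL libraries and 10.07 and 10.15 in shGFP libraries. Its rlog difference of 0.24 ± 0.05 (SE; limma, adjusted p = 1.78e-06) was close in size to that of EGR1. It was also close to that of EGR3, a lower gene, whose rlog values are shrunk more. In the authors' deposited table the log2 fold change of NAB2 is 0.48 ± 0.10, against 0.46 ± 0.14 for EGR1 and 1.00 ± 0.21 for EGR3. NAB1 had 11.71 and 11.76 in shARIEL libraries and 11.76 and 11.74 in shGFP libraries, which overlap. EGR4, the fourth EGR gene, was near the bottom of the tested range, at 3.74 and 3.71 in shARIEL libraries and 3.67 and 3.68 in shGFP libraries, and was not called (difference 0.05 ± 0.02, SE; limma, adjusted p = 0.0565). It was called with the libraries centred on their medians and with a replicate block, and its sign turned with the GC and length trend removed (-0.039). Of the 5 tested EGR and NR4A partners, NAB2 alone was called, where 44.4% of all tested genes were. With that trend removed 1 partner was higher and 1 lower, against 29.0% and 24.3% of all genes in that fit.

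The NR4A genes encode orphan nuclear receptors, of which NR4A1 (Nur77) is widely used as a reporter of T-cell receptor signalling. NR4A1, on chromosome 12, had rlog values of 9.33 and 9.24 in shARIEL libraries and 8.96 in both shGFP libraries. The gap was wider than the spread within either group. The difference was 0.33 ± 0.05 (SE; limma, adjusted p = 1.94e-10), the largest rise among these genes on the rlog scale and rank 159 from the top of the 14601. The authors' deposited table has it 1.68-fold higher. Its relatives were not called. NR4A3 had 5.48 and 5.50 in shARIEL libraries and 5.46 and 5.49 in shGFP libraries, with overlapping groups (difference 0.01 ± 0.03, SE). NR4A2 was too low to be tested, at 2.48 and 2.51 in shARIEL libraries and 2.51 and 2.49 in shGFP libraries. Both sit where the rlog transform shrinks most, and in the authors' deposited table the log2 fold change of NR4A3 is 0.04 ± 0.21.

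The IER genes encode small proteins of the immediate early response, with roles in growth and, for IER3, in survival under stress. IER5, on chromosome 1, had rlog values of 12.06 and 12.10 in shARIEL libraries and 11.90 and 11.96 in shGFP libraries. Its difference was 0.15 ± 0.04 (SE; limma, adjusted p = 0.000312), with no overlap between the groups. IER2, on chromosome 19, had 12.72 and 12.76 in shARIEL libraries and 12.62 and 12.68 in shGFP libraries. Its difference of 0.09 ± 0.03 (SE; limma, adjusted p = 0.0199) was the smallest of the called ones. The call on IER2 was lost without shARIEL replicate 2 (adjusted p = 0.241), without shGFP replicate 1 (0.223) and with the GC and length trend removed (0.569), and 0.0019 to 0.569 is its range over the alternatives that used limma with a shared spread. IER3, on chromosome 6, had 11.20 and 11.27 in shARIEL libraries and 11.19 and 11.14 in shGFP libraries. These values did not overlap, as in 70.7% of all tested genes, but the difference of 0.07 ± 0.04 (SE; limma, adjusted p = 0.186) was not called.

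A trend with base composition ran through these libraries, and the call on IER2 depended on it. Over all tested genes with transcript properties in GENCODE 29, the median difference was -0.08 in the lowest decile of transcript GC content and 0.08 in the highest. The median transcript had 49.6% GC; IER2 has 62.9%, NR4A1 60.8%, IER3 58.2% and EGR1 55.4%. With each library's trend on GC and length removed by regression, the difference of IER2 was 0.016 and that of IER3 was -0.0012. NR4A1 kept 0.27, EGR1 0.19, EGR2 0.14, EGR3 0.24 and IER5 0.16, all called (limma, adjusted p from 6.35e-06 to 0.00232). CD69, at 36.5% GC lower than all but 2.97% of tested genes, kept -0.59. On those values 5 of the 9 genes were higher and 1 lower, against 29.0% and 24.3% of all genes.

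**Figure D2:**
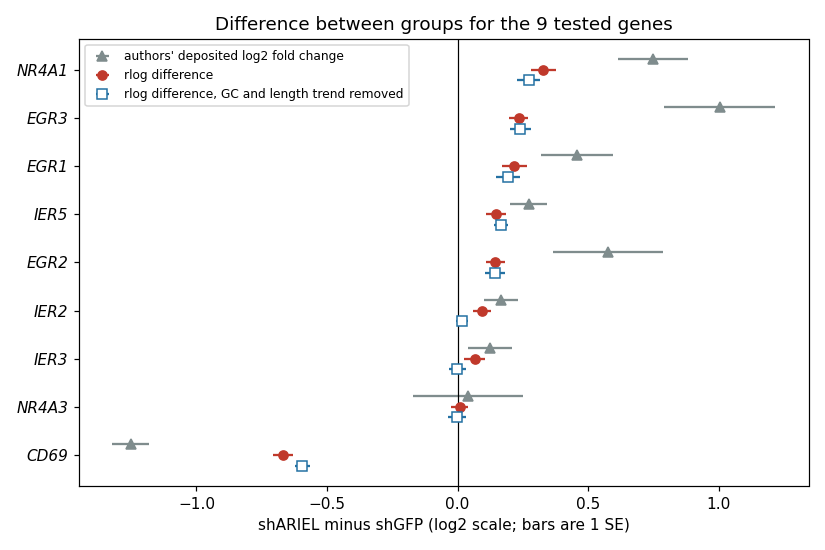
Difference of shARIEL minus shGFP on the log2 scale for the 9 tested genes, with bars of 1 SE: circles are rlog differences, open squares the same with the trend on GC content and length removed, and triangles the authors' deposited log2 fold changes. IER2 and IER3 move to near 0 with the trend removed, while NR4A1, the EGR genes, IER5 and CD69 stay on their side.

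CD69 is a C-type lectin of the lymphocyte surface that is known to bind the sphingosine-1-phosphate receptor S1PR1 and draw it into the cell, which keeps activated cells in lymphoid tissue. It lies on chromosome 12 among other lectin genes. CD69 had rlog values of 11.39 and 11.38 in shARIEL libraries and 12.05 and 12.06 in shGFP libraries. Replicates were nearly equal (SD 0.01 in each group, n = 2), and the groups stood far apart. The difference was -0.67 ± 0.04 (SE; limma, adjusted p = 7.81e-65), rank 35 from the bottom of the 14601 tested genes. The authors' deposited table has it 2.38-fold lower (log2 fold change -1.25 ± 0.07, SE). Its 4 values, centred on their mean, were closest to those of the unannotated locus XLOC_056488 (Euclidean distance 0.03 over the 4 libraries), of PI16 (0.05) and of SEMA4A (0.06). XLOC_056488 had 13.13 and 13.10 in shARIEL libraries and 13.76 and 13.75 in shGFP libraries.

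Several genes listed with CD69 fell as well. Of 13 genes listed as its lectin relatives and exit receptors, 8 were tested and 5 fell, where 22.4% of all tested genes fell. None was higher, where 22.1% of all tested genes were, and the median rlog difference was -0.17. CLEC2D, a ligand of the receptor KLRB1, had 7.25 and 7.35 in shARIEL libraries and 7.63 and 7.55 in shGFP libraries (difference -0.29 ± 0.04, SE). CLEC2B differed by -0.22 ± 0.05, the myeloid inhibitory lectin CLEC12A by -0.33 ± 0.05 and KLRG1 by -0.11 ± 0.05; KLRG1 was named after its values were seen. All 4 are on chromosome 12. The call on KLRG1 was lost with each library left out in turn (limma, adjusted p from 0.0681 to 0.171) and after removal of the GC and length trend (0.0863). The authors' deposited table does not call it either (adjusted p = 0.141) and has 4 of the 8 lower, against 19.3% of its genes. S1PR1 itself had 9.24 and 9.26 in shARIEL libraries and 9.71 and 9.63 in shGFP libraries, a difference of -0.42 ± 0.05 (SE; limma, adjusted p = 1.78e-16). KLF2, a transcription factor known to activate S1PR1, had 7.90 and 8.04 in shARIEL libraries, around 7.96 and 7.94 in shGFP libraries, and was not called. The receptor genes S1PR2 and S1PR4 were tested and not called either.

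**Figure D3:**
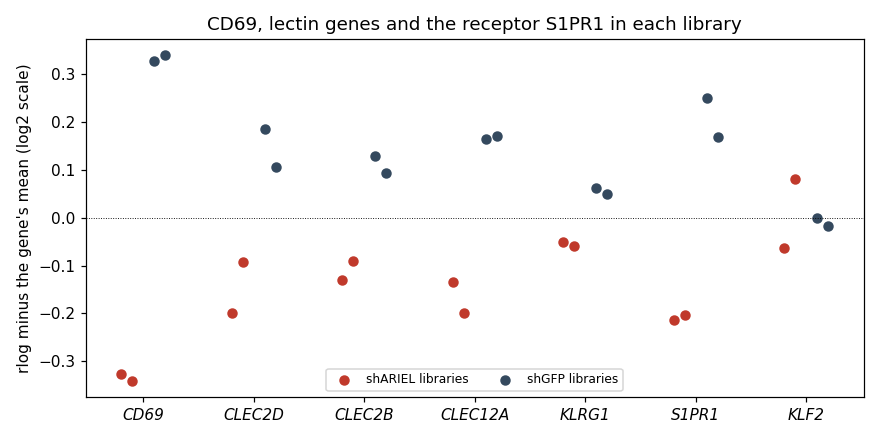
Rlog expression of CD69, 4 further lectin genes, S1PR1 and KLF2 in each library, as distance from the mean of each gene on the log2 scale; shARIEL libraries are drawn left of shGFP libraries. In all but KLF2 both shARIEL libraries lie below both shGFP libraries, as in 35.1% of all tested genes.

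The messages of these genes are described here by features that were not used to choose them, each beside all tested genes. EGR1, EGR2, EGR3, IER2, IER3 and IER5 have at most 2 exons, as do 7.36% of the 12588 tested genes with transcript properties. AU-rich pentamers, ATTTA in the 3′ UTR, mark many short-lived messages. At least 1 was found in 9 of the 10 genes, IER2 being without, and in 68.6% of tested genes. IER5 has 10, IER3 has 6 and CD69 has 5, where 28.6% of tested genes have 5 or more and 12.2% have 10 or more. The 3′ UTRs of 7 of the 10 are above the median density of 1.53 per kb, up to 8.14 in IER3. Those of EGR1 (0.81), EGR3 (1.07) and IER2 (0) are below it, so pentamers are not a trait of all these genes. The densest 30-base stretches of 3 of them and the first pentamer of CD69 are shown from GENCODE 29, with pentamers in capitals and positions counted from the first base after the stop codon.
IER5, 2562 to 2591: ttcctttATTTATTTATTTATTTAattata
IER3, 259 to 288: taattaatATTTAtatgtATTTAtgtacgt
NR4A1, 465 to 494: cATTTAtatttgtgtattttcctggATTTA
CD69, 322 to 351: gcgtggacttactATTTAttgctgaatgac
IER5 and NR4A1, which has 3 pentamers in all, rose, CD69 fell and IER3 was not called. Whether pentamers go with the response was not tested.

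Expression per length ordered the genes over a wide range. As the linear value of the rlog per kb of transcript, IER2 was highest at 3278 in shARIEL cells and 3075 in shGFP cells. IER3 had 1933 in shARIEL cells and 1847 in shGFP cells, and IER5 had 1032 in shARIEL cells and 932 in shGFP cells. CD69 ranked below IER3 in shARIEL cells, at 1596, and above it in shGFP cells, at 2534. EGR1 and NR4A1 followed at 235 and 234 in shARIEL cells, where their libraries overlapped, and at 202 and 186 in shGFP cells, where they did not. EGR2 (30.6 in shARIEL cells, 27.6 in shGFP cells), EGR3 (17.4 in shARIEL cells, 14.8 in shGFP cells), NR4A3 (11.8 in shARIEL cells, 11.7 in shGFP cells) and NR4A2 (1.62 in shARIEL cells, 1.63 in shGFP cells) were far lower.

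Genes upstream of the immediate early response were called in either direction. Of 22 tested genes of the Ras-ERK and SRF arm, 7 rose and 4 fell, with a median rlog difference of 0.02, where 22.1% of all tested genes rose and 22.4% fell. SRF had 13.79 and 13.87 in shARIEL libraries and 13.55 and 13.65 in shGFP libraries, a difference of 0.23 ± 0.03 (SE; limma, adjusted p = 3.07e-11). The kinase gene ARAF differed by 0.50 ± 0.04 and the ERK-activated kinase gene RPS6KA1 by 0.16 ± 0.03, while ELK3, an ETS partner of SRF, differed by -0.21 ± 0.05. Without shARIEL replicate 2 fewer genes of this arm were called in each direction, as over all tested genes. With a replicate block 8 rose and 7 fell, where 3722 and 3704 of all 14601 tested genes did. With the GC and length trend removed 10 rose and 4 fell. In the calcium, NFAT and MEF2 arm 5 of 24 tested genes rose and 7 fell, or 7 and 6 without the GC and length trend. Over all genes without that trend 29.0% rose and 24.3% fell. The calcineurin catalytic subunit gene PPP3CA differed by -0.32 ± 0.05 and the calcium channel gene ITPR1 by -0.22 ± 0.03. RCAN1, an inhibitor of calcineurin and a known NFAT target, differed by 0.41 ± 0.04, and the calcium-dependent kinase gene CAMK4 by 0.23 ± 0.03. Rises in that arm were fewer without shARIEL replicate 2 and without shGFP replicate 1, as were those over all tested genes.

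**Figure D4:**
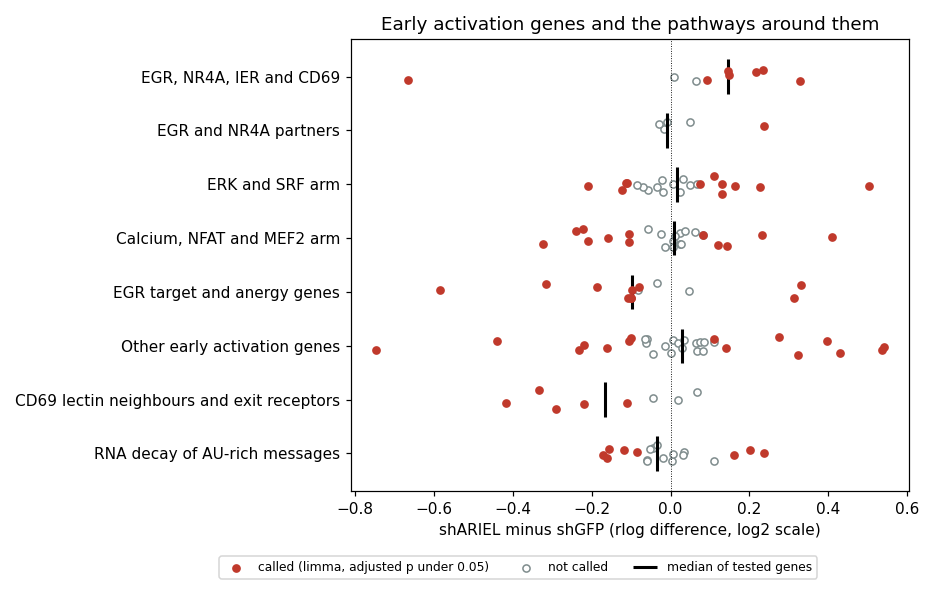
Rlog difference of shARIEL minus shGFP (log2 scale) for the tested genes of each list, 1 point per gene, filled where limma called it and open where it did not; the black bar is the median of the list. Each list has genes on both sides of 0, and the lectin and exit receptor list has called genes on the lower side only.

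Of 13 tested genes known as EGR targets or T-cell anergy markers, mostly from work in mouse T cells, 8 fell and 2 rose. Over all tested genes 22.4% fell and 22.1% rose. The median rlog difference of the 13 was -0.10. With the GC and length trend removed 5 fell and 3 rose, against 24.3% and 29.0% of all genes in that fit. Falls were also fewer without shARIEL replicate 1, as they were over all tested genes. The death ligand gene TNFSF10 differed by -0.58 ± 0.05 and the receptor inhibitor gene CD5 by -0.32 ± 0.04. ID3 and ID2, inhibitors of E proteins, differed by 0.33 ± 0.04 and 0.31 ± 0.05.

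Of 31 tested genes among other rapidly induced lymphocyte genes, 8 rose and 7 fell. These counts are near the shares over all tested genes, 22.1% higher and 22.4% lower. ARC, an immediate early gene best known from neurons, had 7.90 and 7.86 in shARIEL libraries and 7.28 and 7.40 in shGFP libraries (difference 0.54 ± 0.04, SE). The stress-induced GADD45B differed by 0.54 ± 0.05 and PPP1R15A, a phosphatase subunit of the stress response, by 0.43 ± 0.04. CD38, an ectoenzyme and activation marker, had 11.08 and 10.98 in shARIEL libraries and 11.81 and 11.74 in shGFP libraries, a difference of -0.75 ± 0.04 (SE). CD38 and CD69 are surface markers of activation, and both were lower while EGR1, EGR2, EGR3 and NR4A1 messages were higher. CD38 is named for its small adjusted p, and the state of activation was not tested. Of other surface genes in the list, the authors' deposited table has ICOS and CD40LG lower (log2 fold change -1.11 and -0.91). It does not call IL2RA or CD83 (-0.41 and -0.12, adjusted p = 0.103 and 0.178). Of the 42 genes listed, 11 were too low to be tested, among them the cytokine genes IL2 and IFNG.

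Genes whose products bind or degrade AU-rich messages were called either way. Of 19 tested, 3 rose and 5 fell. With the GC and length trend removed 8 rose and 3 fell, and with the libraries centred on their medians 4 rose and 4 fell. Fewer fell without shARIEL replicate 2, as over all tested genes. CNOT7, a deadenylase, differed by 0.24 ± 0.03 and the decay factor gene KHSRP by 0.16 ± 0.03. CNOT6L, a further deadenylase, differed by -0.17 ± 0.03 and the decapping enzyme gene DCP2 by -0.16 ± 0.03. Over the 118 tested genes of all these lists, 26 rose and 35 fell, against 22.1% and 22.4% of all tested genes. With the trend removed 41 rose and 30 fell, against 29.0% and 24.3% of all genes in that fit.

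All these limma calls rest on a spread shared by genes of similar level. The prior degrees of freedom of that fit were infinite, so a gene's own replicate spread had no separate weight in its SE or p-value. With the own variance of each gene on 2 residual degrees of freedom, limma called 0 of the 10 genes and 0 genes in all, with 5 and 4561 at an unadjusted p under 0.05. Genes on the opposite strand overlap EGR3, NR4A1, IER2 and IER3 in GENCODE 29, and whether reads were counted by strand is not stated.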

How the data were processed

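Libraries of Jurkat cells, 2 with shARIEL and 2 with shGFP, were grouped by sample title. Per the labels' protocols they were strand-specific, with paired reads of 100 bases, and ERCC spike-ins were added. The tools named in the submitters' processing notes are STAR (2.5.2a), HTSeq (0.6.1) and DESeq2 (1.12.4), with build hg19 and no roles. Filters and size factors are not stated. The authors deposited rlog values on the log2 scale, per the file headers. Beside them stand the authors' log2 fold change and its error, a score, a p-value and an adjusted p for each gene. Counts are not used here and depth is unknown. The rlog transform draws values towards the mean of the gene, so its differences understate changes, most for low genes.

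The rlog values went into limma 3.58.1 (lmFit, eBayes with trend, R 4.3.3) without a pseudocount. Tested were the 14601 of 22361 rows with a mean rlog of at least 3.32, and p-values were adjusted over these by Benjamini-Hochberg. Promoter windows came from RefSeq (GRCh38.p14) and transcripts from GENCODE 29, by gene ID. Genes and lists were chosen with earlier results of these data known. Named are the 10 early activation genes, ARIEL, 8 partner genes and the 3 genes nearest to CD69 in pattern. Up to 4 called genes per list with the smallest adjusted p are named too. KLRG1, ICOS, CD40LG, IL2RA, CD83, the called markers of other cell types and the untested IL2 and IFNG were added after their values were seen. Alternatives were other filters, spreads and scalings, a GC and length correction, a replicate block and leaving out each library.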

Additional observations from a re-analysis of the deposited data

How the results depend on the processing

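Of the 10 genes, the calls on EGR1, EGR2, EGR3, NR4A1, IER5 and CD69 held under each alternative that shares the spread between genes, including each library left out. Limma on each gene's own variance called 0 genes of all tested, 0 of these genes in either direction and 0 of the pathway genes. Leaving out 1 library gave 4225 to 6188 called genes in all, against 6488, with 2004 to 3061 higher and 2221 to 3127 lower; the lowest was without shARIEL replicate 2. The same gave 5 to 6 of the early activation genes higher and 1 lower in each case. With the GC and length trend removed, 41 pathway genes were higher against 26. The median difference of the 9 tested genes was 0.27 on the authors' deposited fold changes, against 0.15. With the trend removed the sign turned for KRT8, a called marker (-0.00044), and for EGR4 (-0.039), IER3 (-0.0012), KLF2 (-0.070), NAB1 (0.055) and NR4A3 (-0.0024), which were not called. With 1 library left out KLF2 ranged from -0.054 to 0.091, NAB1 from -0.040 to 0.0079 and NR4A3 from -0.0060 to 0.023. The cause was not tested. With a replicate block 7426 genes were called (3722 higher and 3704 lower), and of the 10 genes again 6 higher and 1 lower. Replicate deviations correlated at 0.198 between groups across genes, and no label says that equal numbers share a culture. Depth is unknown, so what it limits cannot be given.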
